A study of Mus musculus with 4 samples.

Results

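The proteasome subunit genes of the mouse hippocampus were described in 4 RNA-seq libraries taken after global cerebral ischemia (GCI). The genes were chosen by symbol, as every Psma, Psmb, Psmc or Psmd symbol followed only by a number in the count tables, with Psmb8 and Psmb9 left out. This gave 37 genes of 22609 in all, 17 of the 20S core particle and 20 of the 19S regulatory particle. All 4 libraries came from the hippocampi of ovariectomized female mice that had 20 min of bilateral common carotid artery occlusion, 1 week after ovariectomy, and 24 h of reperfusion. The mice of the study were 3 to 5 months old. FBN-ARO-KO+GCI mice (n = 2 libraries) had lost Cyp19a1, the gene for aromatase, through Cre driven by the CaMKIIα promoter in forebrain excitatory neurons, and FLOX+GCI mice (n = 2 libraries) were their controls. The Cre acts in excitatory neurons only, whereas the RNA came from the whole tissue, in which fewer cells of a type and less RNA per cell cannot be told apart. No library without ischemia was analysed here, so the comparison is between genotypes within the ischemic state. The labels do not say whether the libraries of a genotype came from separate mice, and the p-values then measure only the spread between these libraries, which may be technical.

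The 26S proteasome is the main protease for ubiquitin-tagged proteins in the cytosol and nucleus. Its barrel-shaped core is built from alpha subunits, which form the outer rings and the gate, and beta subunits, some of which carry the proteolytic sites inside. The regulatory particle caps the core, with a base of ATPases that unfold the substrate and a lid that removes ubiquitin. Interferons induce alternative catalytic beta subunits, which replace the constitutive ones in newly made core particles called immunoproteasomes. The transcription factor NRF1, encoded by Nfe2l1, raises the transcription of proteasome subunit genes when proteasome activity is short. Neurons depend on proteasomes for synaptic protein turnover, and loss of proteasome activity is a known feature of ischemic neurons.

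The upstream promoter bases of 3 catalytic subunit genes are shown because the results below set the inducible Psmb10, the subunit gene that stood apart between genotypes, against the constitutive genes. They are the 120 bases before the annotated start in RefSeq on GRCm38.p6, 5′ to 3′ on the strand of the gene, at chr8:105938393-105938512 (minus strand) for Psmb10, chr14:54617996-54618115 (minus strand) for Psmb5 and chr11:70525237-70525356 (plus strand) for Psmb6. Capitals mark a match to TGACNNNGC, the core of the antioxidant response element that NRF1 and NRF2 bind.
Psmb10: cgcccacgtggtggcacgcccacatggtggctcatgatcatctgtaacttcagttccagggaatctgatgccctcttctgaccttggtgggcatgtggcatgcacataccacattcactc
Psmb5: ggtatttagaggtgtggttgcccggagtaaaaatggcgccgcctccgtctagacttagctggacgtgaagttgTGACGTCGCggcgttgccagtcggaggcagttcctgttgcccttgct
Psmb6: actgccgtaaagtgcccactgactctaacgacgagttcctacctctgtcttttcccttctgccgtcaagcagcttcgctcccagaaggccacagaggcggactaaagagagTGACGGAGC
The Psmb5 and Psmb6 stretches each held 1 match, and the Psmb10 stretch held none. A promoter sequence, from 250 bases before to 50 bases after the start, was matched for 30 of the 37 genes, and Psmb7 was not among them. Searched on both strands, TGACNNNGC was present in 5 of these 30 (16.7%), which were Psmb5, Psmb6, Psmc6, Psmd12 and Psmd9, in 14% of all 27025 genes with a promoter sequence and in 16.9% of the 10265 of these that were tested. Most constitutive core genes lacked it as Psmb10 did, since it was present in 2 of the 11 with a promoter sequence (18.2%). The CCAAT box, to which NF-Y binds, was present in 12 of the 30 (40%) against 41.1% of all genes and 42.6% of those tested, and TATAAA in 3 of the 30 (10%) against 15.7% and 9.01%. A pair of GAAA repeats set 2 bases apart, as in the interferon-stimulated response element, was searched for after the values were seen and was present in Psmb3, Psmd4 and Psmd9, 3 of the 30 (10%), against 3.99% of all genes and 3.53% of those tested. These matches are a description of the letters in these windows only.

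The depth on genes was 24774433 and 24333396 counts for the FLOX+GCI libraries, and 33076795 and 30114003 for the FBN-ARO-KO+GCI libraries. The targeted gene, Cyp19a1, was read 4 and 1 times for FLOX+GCI, and 2 and 2 times for FBN-ARO-KO+GCI, too few to check the labels. The libraries carried all 9 listed markers of hippocampal neurons, among them Camk2a and Slc17a7. None of the 4 hemoglobin genes listed had a count (0 in each library). Alas2, of the same blood cell list, had 104 and 76 counts for FLOX+GCI and 61 and 67 for FBN-ARO-KO+GCI. Reads that align to more than 1 place are not in these counts, so the hemoglobin values do not show that blood was absent. Across 14019 tested genes with a known transcript, the log2 ratio of the genotypes went with transcript GC content (Spearman's rho -0.55), as did the ratio between the 2 FBN-ARO-KO+GCI libraries (-0.48), but less so that between the 2 FLOX+GCI libraries (0.10). For this reason the log2 fold changes are also given from a fit with an offset for GC content and transcript length. Values per library are CPM, counts scaled to a common library total with TMM factors, and 3 counts, taken as the smallest number that can be shown, corresponded to between 0.0907 and 0.123 CPM before that scaling.

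The constitutive proteasome genes had much the same level in both genotypes. The 37 genes together took 0.321% and 0.337% of the gene counts for FLOX+GCI replicates 1 and 2, against 0.312% and 0.303% for FBN-ARO-KO+GCI. The filter on low counts was passed by 36 of the 37. Over all genes, with Benjamini-Hochberg adjustment, none of the 36 passed 0.05 in the quasi-likelihood test of edgeR, where 0.0138% of the 14527 genes tested did. At an unadjusted p under 0.05 there were 3, Psmb10, Psmc4 and Psmd3, all lower in FBN-ARO-KO+GCI, where 16.5% of all genes tested had such a p, 7.82% lower and 8.72% higher. DESeq2 gave an adjusted p for 27 of the 36, none of them under 0.05, and its filtering left the other 9, Psmb10 among them, without one. The median log2 fold change of the 36 was -0.05, beside -0.01 for all genes tested, and 23 values were below 0 and 13 above, where 51.3% of all genes were below 0. A log2 fold change within 0.2 of 0 was found for 31 of the 36, beside 60.7% of all genes. The 95% interval lay within 0.5 of 0, that is within 1.41-fold, for 31 of the 36, and for 20 of the 20 regulatory particle genes, beside 55.7% of all genes. These genes were also more abundant than most, with a median of 93.1 CPM against 23.6 for all genes tested, and their median standard error on the log2 scale was 0.079 against 0.12. After the offset for GC content and length the median was 0.01, with 19 values above 0 and 17 below, beside a median of 0.03 for all genes.

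**Figure D1:**
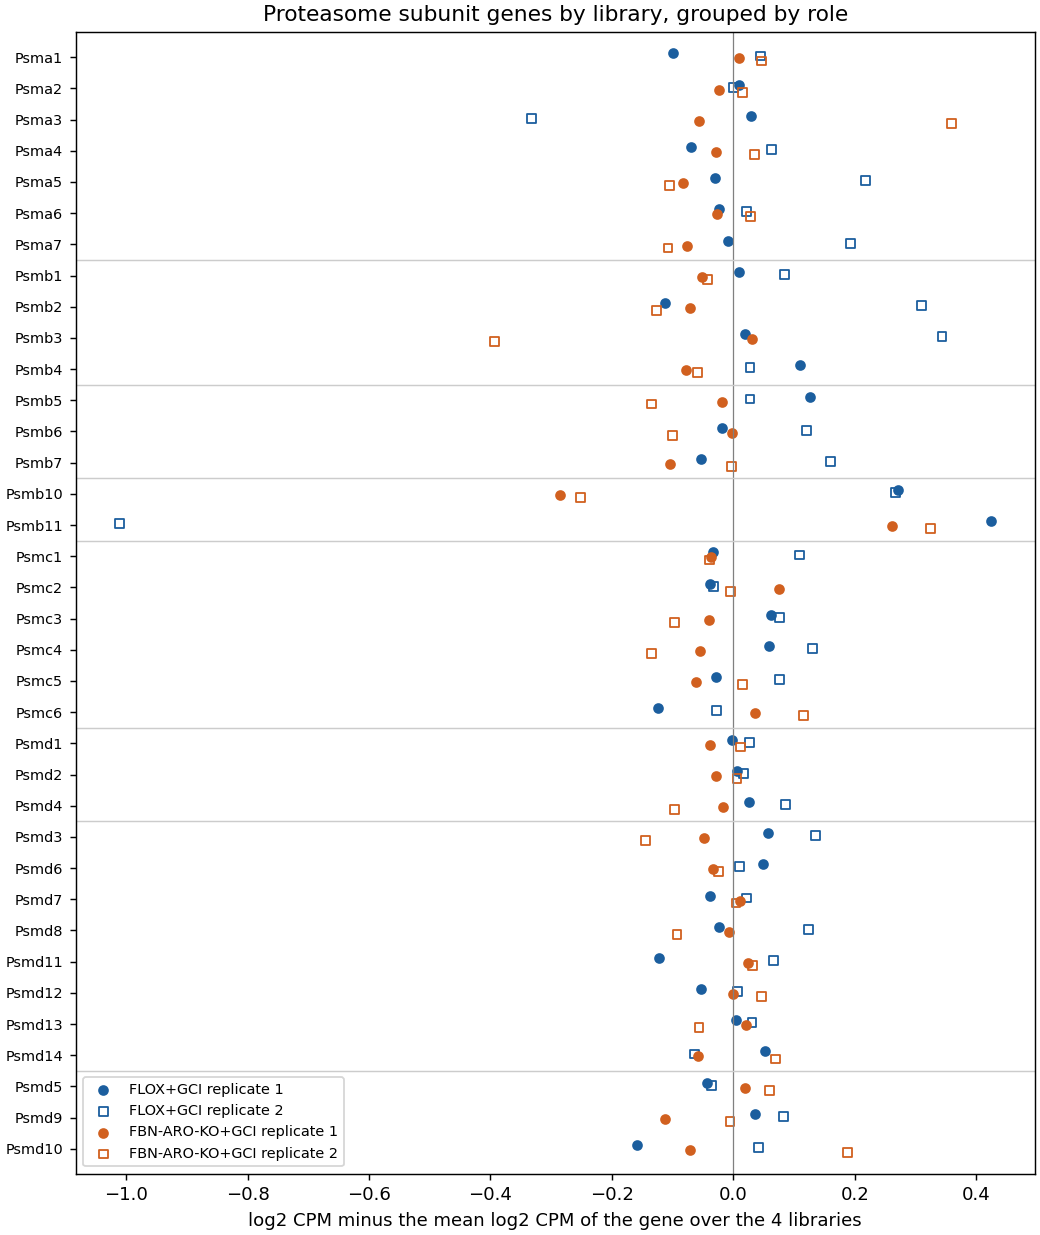
Level of each of the 36 tested proteasome subunit genes in each library, as log2 CPM minus the mean log2 CPM of that gene over the 4 libraries (x axis), with genes on the y axis in blocks by role. Blue marks FLOX+GCI, orange FBN-ARO-KO+GCI, filled circles replicate 1 and open squares replicate 2, and for Psmb10 both FBN-ARO-KO+GCI libraries, at 21.2 and 21.7 CPM, lie well below both FLOX+GCI libraries at 31.2 CPM.

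The genotypes did not overlap for 16 of the 36 genes, 13 of them lower and 3 higher in FBN-ARO-KO+GCI, whereas 51.8% of all genes tested did not overlap, 25.8% lower and 25.9% higher. FLOX+GCI replicate 2 was the highest library for 21 of the 36 genes and lay above FLOX+GCI replicate 1 for 28. In FBN-ARO-KO+GCI, replicate 2 lay above replicate 1 for 21. Without FLOX+GCI replicate 2 the median of the 36 was -0.03, and without FLOX+GCI replicate 1 it was -0.09.

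By particle, the values of the core genes lay somewhat lower than those of the regulatory genes. The 17 core genes summed to 1041 and 1124 CPM in FLOX+GCI and to 1006 and 1011 CPM in FBN-ARO-KO+GCI. The 20 regulatory genes summed to 2133 and 2207 CPM in FLOX+GCI and to 2107 and 2105 CPM in FBN-ARO-KO+GCI. Both sums were lower in each FBN-ARO-KO+GCI library than in each FLOX+GCI library, by a margin smaller than the distance between the FLOX+GCI replicates for the core and for the regulatory particle. The core sum over the regulatory sum was 0.488 and 0.509 for FLOX+GCI against 0.477 and 0.480 for FBN-ARO-KO+GCI. The median log2 fold change was -0.11 for the 16 core genes tested and -0.03 for the 20 regulatory genes. After the GC and length offset these medians were -0.04 and 0.02.

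**Figure D2:**
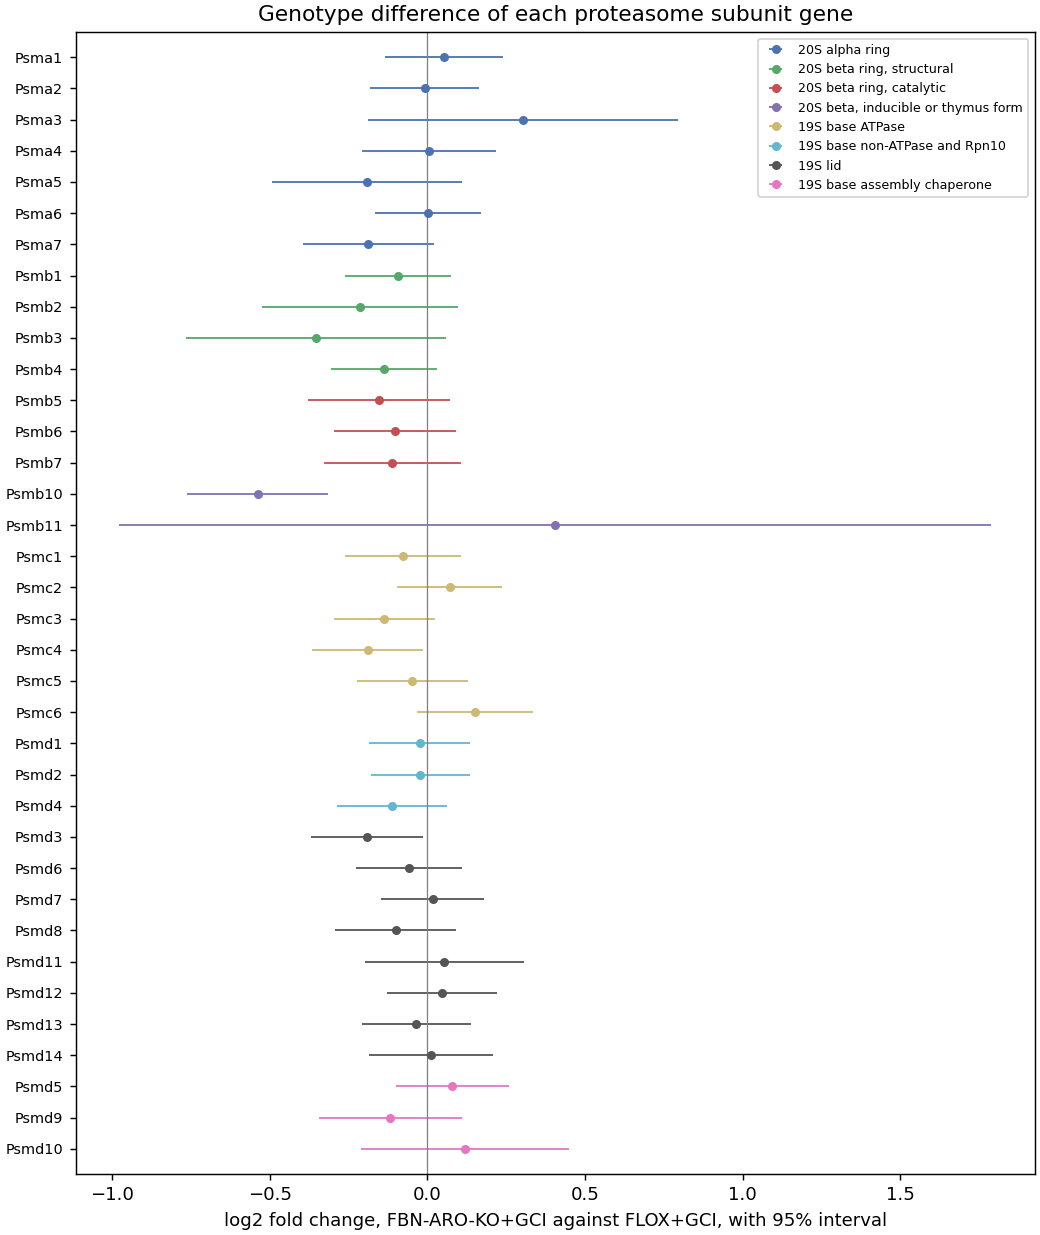
Log2 fold change of each tested proteasome subunit gene, FBN-ARO-KO+GCI against FLOX+GCI (x axis), with its 95% interval from edgeR's quasi-likelihood test, coloured by role. Most points lie within 0.2 of 0, Psmb10 lies at -0.54 with an interval that ends below 0, and the widest interval belongs to Psmb11.

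The alpha ring genes, Psma1 to Psma7, had 0.00 as their median log2 fold change, with 4 values above 0 and 3 below, and none had an unadjusted p under 0.05. Psma1 lay at 0.05, Psma4 at 0.01 and Psma6 at 0.00. The lowest value belonged to Psma5, an alpha ring subunit, on chromosome 3 of mm9 from 108059844 to 108082892. It had 15.96 and 18.9 CPM in FLOX+GCI and 15.4 and 15.2 CPM in FBN-ARO-KO+GCI (log2 fold change -0.19 with a standard error of 0.13, adjusted p = 0.459 by edgeR quasi-likelihood). The highest value belonged to Psma3, on chromosome 12 from 72075608 to 72097334, with 6.98 and 5.44 CPM in FLOX+GCI and 6.58 and 8.77 CPM in FBN-ARO-KO+GCI, so that the genotypes overlapped (log2 fold change 0.30 with a standard error of 0.21, adjusted p = 0.476 by edgeR quasi-likelihood). With 1 library left out the value ranged from 0.084 to 0.50 for Psma3 and from -0.31 to -0.067 for Psma5. Psma2 lay at -0.01 without the GC and length offset and at -0.18 with it (unadjusted p = 0.0406, adjusted p = 0.418 by edgeR quasi-likelihood). Psma2 was named after its values were seen, as the only subunit gene besides Psmb10 with an unadjusted p under 0.05 in that fit, where 11.4% of all genes had one. Psma8, the testis form of an alpha subunit that serves in meiosis, was the only gene below the filter, its counts being 9 and 6 for FLOX+GCI against 4 and 10 for FBN-ARO-KO+GCI.

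All of the constitutive beta ring genes, Psmb1 to Psmb7, had values below 0, with a median log2 fold change of -0.14 and none with an unadjusted p under 0.05. The genotypes did not overlap for 3 of the 7, where 51.8% of all genes did not. After the GC and length offset the median was -0.06, with 5 values below 0 and 2 above. Among the structural subunits, which have no active site, Psmb1 had the value nearest 0, with 116 and 122 CPM in FLOX+GCI and 111 and 112 CPM in FBN-ARO-KO+GCI (log2 fold change -0.09). Psmb3 had the lowest value, with 17.7 and 22.2 CPM in FLOX+GCI and 17.9 and 13.3 CPM in FBN-ARO-KO+GCI (log2 fold change -0.35 with a standard error of 0.18, adjusted p = 0.351 by edgeR quasi-likelihood). The replicates of Psmb3 differed within each genotype by more than the genotype means did, and its log2 fold change ranged from -0.59 to -0.16 with 1 library left out.

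The 3 constitutive catalytic genes were close to each other in their difference between genotypes. Psmb5, which carries the chymotrypsin-like site, had 37.3 and 34.8 CPM in FLOX+GCI and 33.7 and 31.1 CPM in FBN-ARO-KO+GCI. Psmb6, which carries the caspase-like site, had 97.9 and 108 CPM in FLOX+GCI and 99.1 and 92.6 CPM in FBN-ARO-KO+GCI. Psmb7, which carries the trypsin-like site, had 107 and 125 CPM in FLOX+GCI and 104 and 111 CPM in FBN-ARO-KO+GCI. The genotypes overlapped for Psmb6 and Psmb7 but not for Psmb5. Their log2 fold changes were -0.15 for Psmb5 (95% interval -0.38 to 0.07), -0.10 for Psmb6 (-0.30 to 0.09) and -0.11 for Psmb7 (-0.33 to 0.11). With 1 library left out they ranged from -0.22 to -0.096 for Psmb5, from -0.17 to -0.034 for Psmb6 and from -0.21 to -0.0045 for Psmb7, the values nearest 0 for Psmb6 and Psmb7 being those without FLOX+GCI replicate 2. With the GC and length offset Psmb5 and Psmb6 turned to 0.08 and 0.11, and Psmb7 stayed below 0 at -0.06.

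Psmb10, the interferon-inducible subunit that takes the place of Psmb7 in the immunoproteasome, had the largest decrease in value among the 36. It lies on chromosome 8 of mm9 from 108459628 to 108462292, where a noncoding transcript, Gm16156, overlaps it on the opposite strand, and the strand setting of the counts is not given, so that reads of both may not be told apart. Its counts were 783 and 768 for FLOX+GCI against 704 and 637 for the more deeply sequenced FBN-ARO-KO+GCI libraries. This came to 31.2 and 31.2 CPM for FLOX+GCI against 21.2 and 21.7 CPM for FBN-ARO-KO+GCI. The replicates lay close together and the genotypes were well apart. The level was 0.689-fold that of FLOX+GCI (95% interval 0.590 to 0.804, log2 fold change -0.54, standard error 0.10). Its unadjusted p was 0.000679 and its adjusted p was 0.238 by edgeR quasi-likelihood, so that the difference did not pass the threshold over all genes. With edgeR's likelihood ratio test the adjusted p was 0.00388, and over all its edgeR alternatives it lay between 0.00388 and 0.815. Its log2 fold change ranged from -0.55 to -0.52 when any 1 library was left out. With the GC and length offset it was -0.33 (unadjusted p = 0.0103, adjusted p = 0.359 by edgeR quasi-likelihood), the GC content of its transcript being 56.5% against a median of 50.6% for the genes tested. Psmb11, which replaces Psmb5 in the thymus, was counted 11 and 4 times for FLOX+GCI against 13 and 12 times for FBN-ARO-KO+GCI, with a wide interval around its log2 fold change of 0.41 (95% interval -0.98 to 1.79).

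The other inducible genes of the immunoproteasome, which were not among the 37, were set beside Psmb10. Their list of 7 genes also held Psme3, Psme4 and Psmf1, which are not inducible subunits of the immunoproteasome. Of these 7 genes, 6 had values below 0, where 51.3% of all genes did, with a median log2 fold change of -0.31. An unadjusted p under 0.05 was found for 2, Psme1 and Psmf1, where 16.5% of all genes had one. With the GC and length offset the median was -0.20, and Psme1 went from -0.31 to -0.14 (unadjusted p = 0.233 by edgeR quasi-likelihood). Psmf1 went from -0.22 to -0.24 (unadjusted p = 0.0157, adjusted p = 0.371 by edgeR quasi-likelihood). It was the only 1 of the 7 with an unadjusted p under 0.05 in that fit, where 11.4% of all genes had one. None of the 7 had an adjusted p under 0.05 in either fit. Psme1, which with Psme2 forms the interferon-inducible PA28 activator, had 24.7 and 29.5 CPM in FLOX+GCI and 22.2 and 21.4 CPM in FBN-ARO-KO+GCI (log2 fold change -0.31 with a standard error of 0.12, adjusted p = 0.269 by edgeR quasi-likelihood). Psmb8, Psmb9, Psme2, Psme3, Psme4 and Psmf1 were named after their values were seen. Psmb8, which replaces Psmb5, had 4.59 and 4.14 CPM in FLOX+GCI and 3.50 and 2.42 CPM in FBN-ARO-KO+GCI (log2 fold change -0.55, adjusted p = 0.309 by edgeR quasi-likelihood). Psmb9, which replaces Psmb6, was counted 48 and 33 times for FLOX+GCI against 29 and 32 times for FBN-ARO-KO+GCI (log2 fold change -0.73, adjusted p = 0.325 by edgeR quasi-likelihood). Psme2 had a log2 fold change of -0.33. With 1 library left out, the log2 fold change ranged from -0.85 to -0.32 for Psmb8, from -0.97 to -0.45 for Psmb9 and from -0.43 to -0.19 for Psme1. For 5 of the 7, Psmb8, Psmb9, Psme1, Psme2 and Psmf1, the genotypes did not overlap, where 51.8% of all genes did not. Psme3, the nuclear relative of Psme1 that interferons do not induce, had 134 CPM in each of the 4 libraries.

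Relative to its constitutive counterpart within each library, Psmb10 per kb of transcript was 0.266 and 0.228 of Psmb7 for FLOX+GCI against 0.187 and 0.179 for FBN-ARO-KO+GCI. Psmb8 per kb was 0.0659 and 0.0636 of Psmb5 for FLOX+GCI against 0.0556 and 0.0417 for FBN-ARO-KO+GCI. Psmb9 per kb was 0.0116 and 0.00733 of Psmb6 for FLOX+GCI against 0.00522 and 0.00697 for FBN-ARO-KO+GCI. These ratios of levels per length were lower in both FBN-ARO-KO+GCI libraries than in both FLOX+GCI libraries for each of the 3 pairs. They were not tested. By CPM, the genotypes did not overlap for 51.8% of all genes tested. For Psmb9 the nearest libraries were at 0.00697 and 0.00733. The ratios were not corrected for GC content, which was 56.5% for Psmb10 and 48.7% for Psmb7. It was closer for Psmb8 and Psmb5 (55.8% and 56.6%) and for Psmb9 and Psmb6 (55.3% and 55.8%). Of the Psmb5 transcript windows of read length, 60.3% have an exact copy elsewhere in the genome, so its level is uncertain. The ratio of Psmb10 to Psmb7 was the highest of the 3 in every library.

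**Figure D3:**
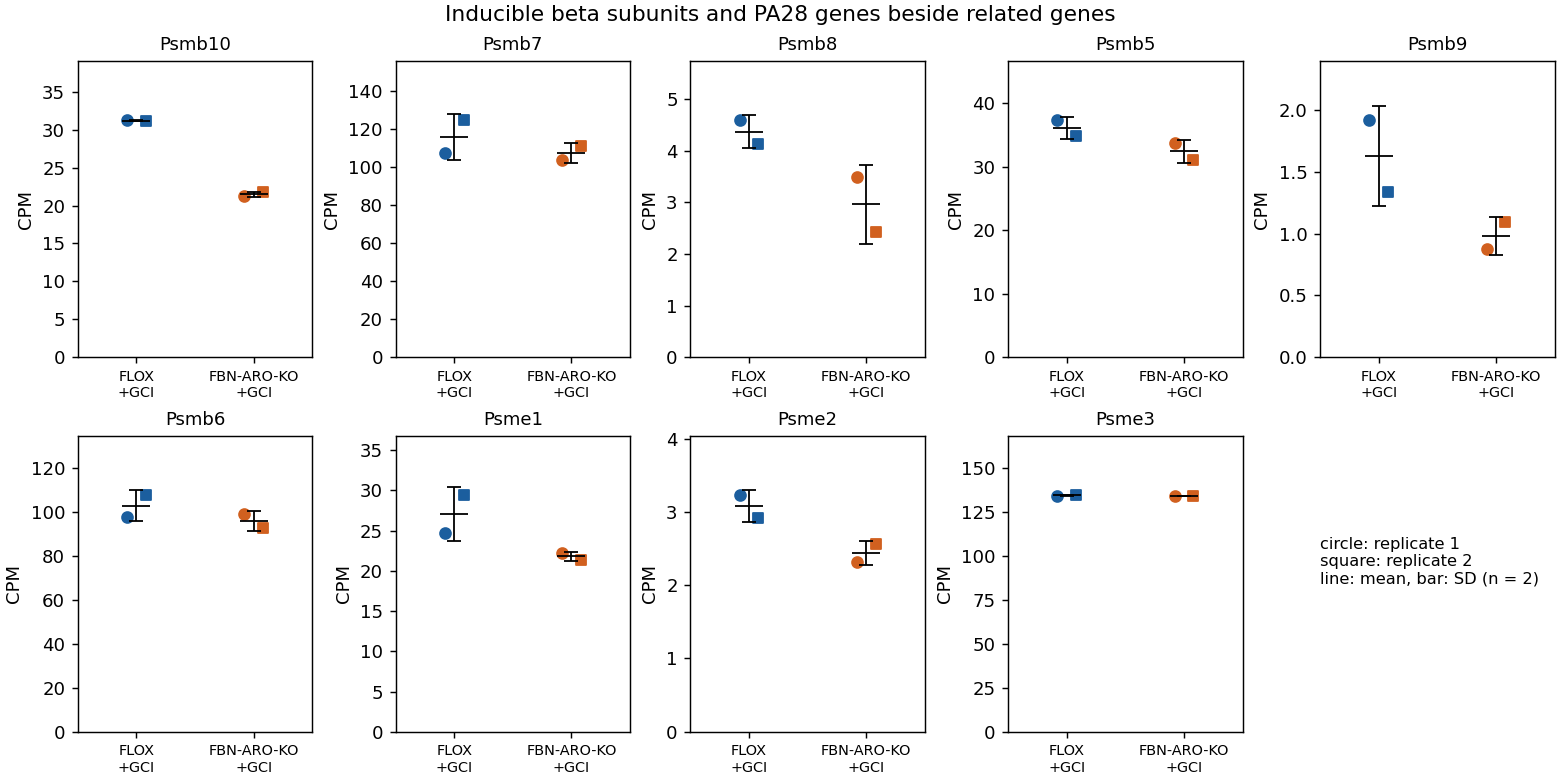
CPM (y axes, each starting at 0) of inducible beta subunit and PA28 genes beside related genes, in FLOX+GCI (blue) and FBN-ARO-KO+GCI (orange), with circles for replicate 1, squares for replicate 2, a line at the mean and a bar for the SD (n = 2). Psmb10 goes from 31.2 to 21.5 CPM on average with little spread, while Psme3 stays at 134 CPM in each library.

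Markers of cell types that can express inducible subunits were read beside these genes. The 5 astrocyte markers summed to 1582 and 1998 CPM in FLOX+GCI and to 1654 and 1858 CPM in FBN-ARO-KO+GCI. Of their values 3 were above 0 and 2 below. Gfap, named after its values were seen, had 396 and 900 CPM in FLOX+GCI and 502 and 560 CPM in FBN-ARO-KO+GCI. Its genotypes overlapped (log2 fold change -0.29), and its FLOX+GCI replicates lay far apart. Aldh1l1 alone of the 5 had an unadjusted p under 0.05, at a log2 fold change of -0.30, or -0.22 with the GC and length offset. The 5 microglia markers summed to 243 and 226 CPM in FLOX+GCI and to 224 and 258 CPM in FBN-ARO-KO+GCI, with 3 values of the 5 below 0 and none with an unadjusted p under 0.05. The 4 endothelium markers summed to 164 and 113 CPM in FLOX+GCI and to 127 and 90.7 CPM in FBN-ARO-KO+GCI. Of these markers, 4 of the 4 had values below 0, where 51.3% of all genes did. An unadjusted p under 0.05 was found for 1 of them, Cdh5, where 16.5% of all genes tested had one. Of the 4 leukocyte markers, only Ptprc passed the filter, at a sum of 3.47 and 3.12 CPM in FLOX+GCI and 3.20 and 4.47 CPM in FBN-ARO-KO+GCI for the 4. The counts of Cd3e, the T cell marker, were 0 and 4 for FLOX+GCI against 3 and 3 for FBN-ARO-KO+GCI. Of the 4 choroid plexus markers, Ttr had a log2 fold change of -0.98 with an unadjusted p under 0.05, whereas Kl, Folr1 and Clic6 had values above 0 (0.09, 0.20 and 0.24). Alas2, the only blood cell marker of 5 that passed the filter, had a log2 fold change of -0.81, also with an unadjusted p under 0.05. The part of these cell types in the Psmb10 result was not tested.

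The 6 ATPase genes of the base, Psmc1 to Psmc6, which encode the ring that unfolds substrates, had -0.06 as their median log2 fold change, with 2 values above 0 and 4 below. Psmc4 had the lowest value of the 6, with 108 and 113 CPM in FLOX+GCI and 99.3 and 94.0 CPM in FBN-ARO-KO+GCI. The genotypes of Psmc4 did not overlap (log2 fold change -0.19 with a standard error of 0.08, unadjusted p = 0.0377, adjusted p = 0.279 by edgeR quasi-likelihood), and with the GC and length offset its value was -0.07. Psmc6 had the highest value, with 80.3 and 85.9 CPM in FLOX+GCI and 89.7 and 94.8 CPM in FBN-ARO-KO+GCI. The genotypes of Psmc6 did not overlap either (log2 fold change 0.15 with a standard error of 0.08, adjusted p = 0.367 by edgeR quasi-likelihood), and with the offset its value turned to -0.10. The Psmc6 transcript had the lowest GC content of the 36, at 36.2%.

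The non-ATPase genes of the base hold the substrate receptors. Psmd2, the scaffold on which shuttle proteins dock, had the value nearest 0, with 178 and 179 CPM in FLOX+GCI and 174 and 178 CPM in FBN-ARO-KO+GCI (log2 fold change -0.02, 95% interval -0.18 to 0.14). Psmd1, the other large scaffold, was almost as near to 0, at -0.03. Psmd4, a ubiquitin receptor, had a log2 fold change of -0.11 (95% interval -0.29 to 0.06).

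The 8 lid genes had -0.01 as their median log2 fold change, with 4 values above 0 and 4 below. Psmd3, a structural lid subunit, had the lowest value, with 139 and 147 CPM in FLOX+GCI and 129 and 121 CPM in FBN-ARO-KO+GCI. Its genotypes did not overlap (log2 fold change -0.19 with a standard error of 0.08, unadjusted p = 0.0373, adjusted p = 0.278 by edgeR quasi-likelihood), and with the GC and length offset its value was 0.02. The Psmd3 transcript had the highest GC content of the 36, at 58.3%. Psmd11, a scaffold subunit of the lid, had the highest value, with 23.5 and 26.8 CPM in FLOX+GCI and 26.1 and 26.2 CPM in FBN-ARO-KO+GCI (log2 fold change 0.05, 95% interval -0.20 to 0.30). Psmd14, the deubiquitinase of the lid, lay at 0.01.

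The chaperones that assemble the base carry Psmd symbols but are not part of the finished particle. Psmd10, also known as gankyrin, had 14.3 and 16.5 CPM in FLOX+GCI and 15.2 and 18.2 CPM in FBN-ARO-KO+GCI, so that the genotypes overlapped (log2 fold change 0.12, 95% interval -0.21 to 0.45). Psmd9 had 30.1 and 31.1 CPM in FLOX+GCI and 27.1 and 29.2 CPM in FBN-ARO-KO+GCI (log2 fold change -0.12, 95% interval -0.34 to 0.11). Psmd5 lay at 0.08.

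Across the 36 genes, the log2 fold change went with transcript GC content, at a Spearman's rho of -0.74 and a Pearson's r of -0.62. The same held for the ratio of FBN-ARO-KO+GCI replicate 2 to replicate 1 (rho -0.72, r -0.61) and not for that of FLOX+GCI replicate 2 to replicate 1 (rho 0.07, r 0.04). After the GC and length offset the rho was 0.09. These are descriptions across genes that share the same 4 libraries, and genes are not independent replicates. The median GC content was 45.0% for Psma1 to Psma7 and 52.2% for Psmb1 to Psmb7, whose median log2 fold changes were 0.00 and -0.14.

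**Figure D4:**
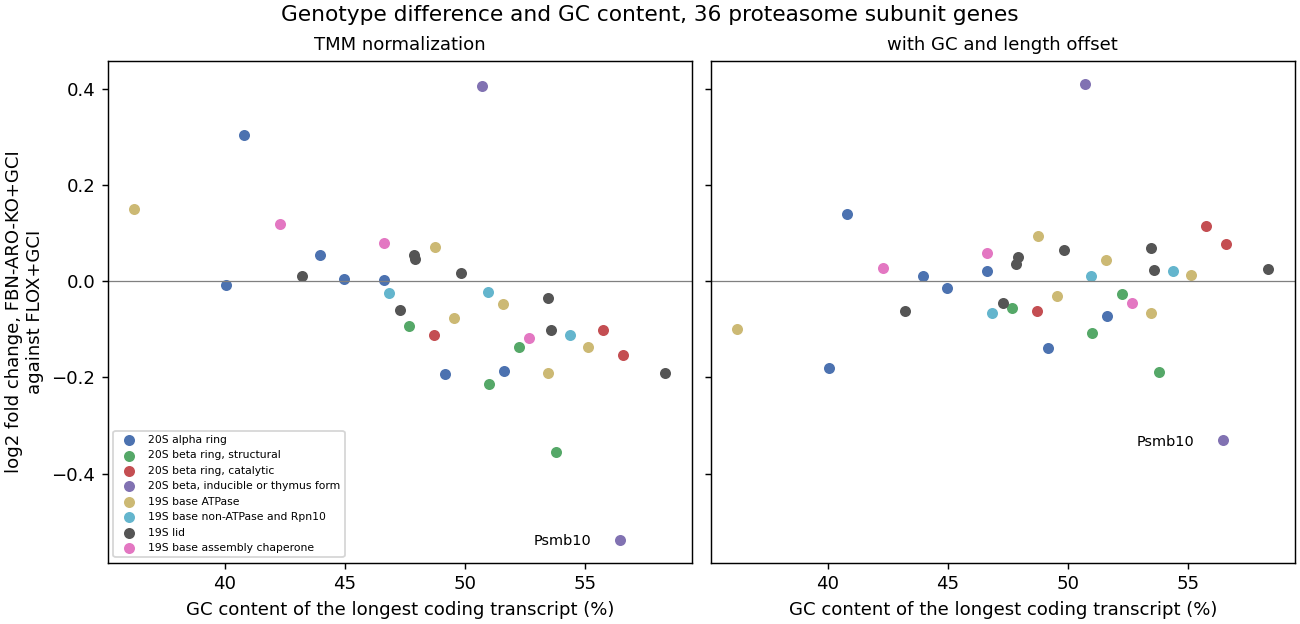
Log2 fold change, FBN-ARO-KO+GCI against FLOX+GCI (y axes), against the GC content of the longest coding transcript (x axes) for 36 proteasome subunit genes, coloured by role, with TMM normalization (left) and with an offset for GC content and length (right). The slope seen on the left (rho -0.74) is not seen on the right (rho 0.09), and Psmb10 stays the lowest gene at -0.33.

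Levels between genes were compared per kb of transcript. Among the 34 genes other than Psma8, Psmb10 and Psmb11, the mean level over the 4 libraries ranged from 2.44 CPM per kb for Psma3 to 135 CPM per kb for Psmc5. Many subunits are present in equal number in the particle, yet their counts per length differed widely. Reads that align to more than 1 place were kept out of the gene counts, and several subunit genes have copies of their sequence elsewhere. Of the 37 transcripts, 17 had at least 1 window of 50 nt, the read length, with an exact copy elsewhere in the mm9 genome. The share of such windows was 63.5% for Psmb3, 60.3% for Psmb5, 56.6% for Psma5, 45.3% for Psma4, 30.5% for Psma3, 26.1% for Psmd2, 19.1% for Psmd11 and 18.9% for Psmc1. These 8 genes had a median level of 30.04 CPM per kb, against 75.1 for the 26 genes with a smaller share, with overlapping ranges (2.44 to 65.7 against 11.2 to 135). Across the 34 genes, level and share had a Spearman's rho of -0.45 and a Pearson's r of -0.43. Levels of the 8 genes per length are therefore uncertain. The median log2 fold change between genotypes was -0.05 in both classes. Low levels were also found with few or no shared windows, at 11.2 CPM per kb for Psmd10, 11.3 for Psmd9, 28.3 for Psma2 and 30.4 for Psmd5.

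**Figure D5:**
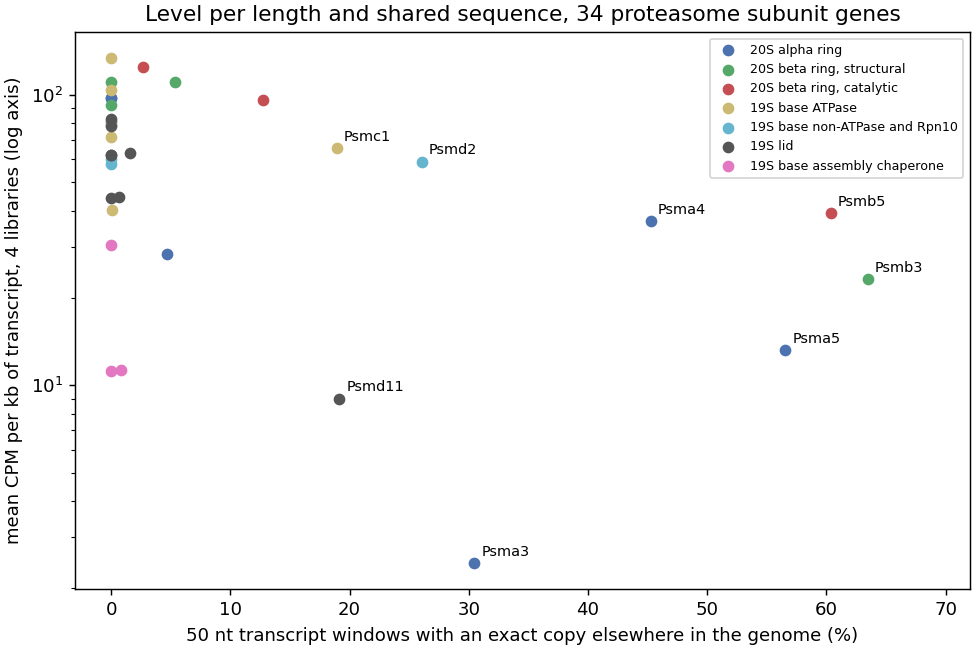
Mean level over the 4 libraries in CPM per kb of transcript (y axis, log scale) against the share of 50 nt transcript windows with an exact copy elsewhere in the genome (x axis, %), for 34 proteasome subunit genes coloured by role. The 8 named genes with a share of at least 15% lie at or below 65.7 CPM per kb, while Psmc5, the highest at 135 CPM per kb, has no shared window.

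In the rest of the ubiquitin-proteasome pathway, 40 listed genes were tested. Their median log2 fold change was -0.03, with 17 values above 0 and 23 below. After adjustment none passed 0.05 in the quasi-likelihood test of edgeR, and 6 had an unadjusted p under 0.05, 3 above and 3 below FLOX+GCI, where 16.5% of all genes had one. Psme1, Psmf1, Uchl5, Ubqln1 and Uba6 were among them, of which Psmf1, Uchl5 and Ubqln1 were named after their values were seen.

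Among the 13 proteins that bind the proteasome or bring substrates to it, 10 had values above 0 and 3 below. Of all genes tested, 51.3% were below 0. Their median log2 fold change was 0.12 for the 13, or 0.04 with the GC and length offset, where 8 values were above 0 and 5 below. That offset gave a median of 0.03 for all genes. Ubqln1, a shuttle for ubiquitin-tagged proteins, had 226 and 209 CPM in FLOX+GCI and 244 and 260.1 CPM in FBN-ARO-KO+GCI (log2 fold change 0.21, adjusted p = 0.255 by edgeR quasi-likelihood). Uchl5, a deubiquitinase bound to the base, had 36.1 and 36.1 CPM in FLOX+GCI and 41.1 and 42.5 CPM in FBN-ARO-KO+GCI (log2 fold change 0.21). The genotypes did not overlap for Ubqln1 or Uchl5, with both FBN-ARO-KO+GCI libraries higher, as for 25.9% of all genes tested. With the GC and length offset the value was 0.18 for Ubqln1 and 0.04 for Uchl5.

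The NRF1 pathway genes had a median log2 fold change of -0.04, and none of the 8 had an unadjusted p under 0.05. Nfe2l1 itself had 421 and 423 CPM in FLOX+GCI and 404 and 410.0 CPM in FBN-ARO-KO+GCI (log2 fold change -0.05, 95% interval -0.21 to 0.10). The smallest p of the list belonged to Vcp, the ATPase that extracts ubiquitin-tagged proteins from membranes, at a log2 fold change of -0.13 (adjusted p = 0.441 by edgeR quasi-likelihood).

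Of the 6 genes for 20S assembly factors, none had an unadjusted p under 0.05. Psmg3, an assembly chaperone, had the smallest p of these, with 13.0 and 14.8 CPM in FLOX+GCI and 11.6 and 11.8 CPM in FBN-ARO-KO+GCI (log2 fold change -0.24, adjusted p = 0.378 by edgeR quasi-likelihood), and with the GC and length offset its value was -0.01. Pomp, which starts the assembly of the beta ring, lay at 0.04.

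Among the 6 genes for ubiquitin and its activating enzymes, Uba6, an E1 enzyme, had 18.9 and 18.8 CPM in FLOX+GCI and 21.8 and 27.4 CPM in FBN-ARO-KO+GCI (log2 fold change 0.38 with a standard error of 0.13, adjusted p = 0.255 by edgeR quasi-likelihood). With the GC and length offset Uba6 was at 0.11. Ubb, a polyubiquitin gene named after its values were seen, had 243 and 273 CPM in FLOX+GCI and 254 and 243 CPM in FBN-ARO-KO+GCI.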

How the data were processed

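Hippocampal RNA-seq counts of 2 FLOX+GCI and 2 FBN-ARO-KO+GCI libraries were used. The authors mapped their 50 nt single-end reads on mm9 using TopHat2 2.0.8b, tallied them by gene with HTSeq, and deposited these raw counts. Neither strand setting nor annotation release is given in the sources used here. The 5 HTSeq counters were left out, and alignments that were not unique are in 1 of them.

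Genotypes were compared over all genes by edgeR 4.0.16 (R 4.3.3) using its quasi-likelihood test, TMM, filterByExpr (minimum count 10), no block and Benjamini-Hochberg adjustment at 0.05. Standard errors were approximated from the F statistic, and 95% intervals use its degrees of freedom. With 2 libraries a genotype an exact permutation test cannot give a two-sided p under 0.333. Alternatives were DESeq2 1.42.0, size factors, library totals, other filters, edgeR likelihood ratio testing, a replicate block, each library left out, and natural splines (5 degrees of freedom) over GC content and length. The scripts were tested on simulated counts.

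Positions, transcripts and 50 nt windows came from GENCODE M1 on NCBIM37, the build of mm9, where each of the 37 genes had a locus. Windows count exact copies only. The limit of 3 counts covers counting error only, whereas the 95% intervals include the estimated spread between libraries.

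The members, lists and alternatives were chosen with earlier results of these data known. Genes named with values are the catalytic and inducible beta genes, in each role the highest and lowest log2 fold change, every member with an unadjusted p under 0.05 or below the filter, and in each pathway list the smallest p. Some genes of the pathway lists are not reported here by name.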

Additional observations from a re-analysis of the deposited data

How the results depend on the processing

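Over all genes 2 were called, against 292 with DESeq2, 294 with the likelihood ratio test, 5 with every gene of at least 1 count, 184 with the replicate block, 1 with the GC and length offset on top of it, and 0 to 193 with 1 library left out. Of the 36 proteasome subunit genes tested, 3 had an unadjusted p under 0.05, where 16.5% of all genes tested had one. The number was 6 with library totals only, 1 with DESeq2, and 1 with the block and the offset. Shares over all genes in these alternatives are not reported here, so these numbers cannot be read against them.

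The median log2 fold change of the subunit genes was -0.089 with library totals only, 0.011 with the offset, 0.011 with the offset and the block, and -0.094 to -0.026 with 1 library left out. For the core genes it was -0.042 with the offset, -0.041 with the offset and the block, and -0.11 to -0.060 with 1 library left out. For the regulatory genes it was -0.066 with library totals only, 0.023 with the offset, 0.024 with the offset and the block, and -0.051 to -0.01 with 1 library left out. For the other ubiquitin-proteasome genes it was -0.061, -0.011 and -0.0094 in the same order, and -0.030 to -0.00025 with 1 library left out. The cause of these shifts was not tested.

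Signs turned for the log2 fold changes below. Without the offset and with all 4 libraries they ranged from -0.19 for Psmd3 (unadjusted p = 0.0373 by edgeR quasi-likelihood) to 0.15 for Psmc6. With the offset, and then with the offset and the block, they were 0.077 and 0.077 for Psmb5, 0.11 and 0.12 for Psmb6, -0.10 and -0.10 for Psmc6, 0.010 and 0.0098 for Psmd2, 0.022 and 0.022 for Psmd4, and 0.025 and 0.025 for Psmd3. With 1 library left out they ranged from -0.036, without FLOX+GCI replicate 1, to 0.15 for Psmd11, from -0.014, without FBN-ARO-KO+GCI replicate 2, to 0.24 for Psmd10, and from -0.027 to 0.0079, without FBN-ARO-KO+GCI replicate 1, for Psma2.

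Replicates share only a number, and across genes the deviations from the group means of libraries with the same number had a correlation of 0.129. Under the replicate block Psmb10 had an adjusted p of 0.0420 (0.329 with the offset too), and no other subunit gene passed 0.05. Among the cell type markers set beside Psmb10, Cdh5 of endothelium and Ttr of choroid plexus had lower ones in that fit, 0.0149 and 0.0136, and Cldn5 of endothelium had 0.0973. DESeq2's filtering left Psmb10 no adjusted p. Over all its edgeR alternatives the adjusted p lay between 0.00388, with the likelihood ratio test, and 0.815, without FBN-ARO-KO+GCI replicate 2. Psma8 and Psmb11 were too low at this depth for a difference to be shown.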
